A study of Mus musculus with 9 samples.

Results

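The genes followed here were 10 genes that mark lipid-associated macrophages, *Trem2*, *Tyrobp*, *Msr1*, *Plin2*, *Fabp5*, *Cd9*, *Tm4sf19*, *Gpnmb*, *Spp1* and *Lgals3*, out of 56748 genes in the count table. They were looked up by gene symbol, and all 10 were found and belonged to the 18510 genes that reached the expression filter. The list was chosen by the levels of these genes in the same 9 libraries, with the differences between phases already known. The differences between phases are therefore given as a description. Where the model fitted over all genes called one of the 10, the count is printed beside the share of all genes called, and nothing is read from it, since the choice of the genes used the same differences.

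Lipid-associated macrophages are macrophages that gather around dying adipocytes in obese adipose tissue, where they take up and break down lipid. Their program is known to depend on the receptor *Trem2*, which binds lipids and lipoproteins and signals through the adaptor *Tyrobp*, and it includes scavenger receptors, lipid droplet and fatty acid binding proteins, and secreted factors. Several of these genes are also used by other cells of the tissue, above all *Plin2*, *Fabp5* and *Cd9*.

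RNA of epididymal adipose tissue was sequenced in 9 libraries of wild-type male C57BL/6J mice that were 8 weeks old when the diets started. The 3 Pre libraries came from mice fed HFD for 8 weeks, the 3 WL1 libraries from mice switched to SD for 1 week after the HFD, and the 3 WL2 libraries from mice switched to SD for 2 weeks. All mice had thus been fed HFD, and no lean group was analysed here. No group was kept on HFD for the further weeks either, and the WL1 and WL2 mice were older than the Pre mice. Effects of the diet switch and of time or age therefore cannot be told apart. The counts are from whole tissue, so fewer cells of a type and less RNA per cell cannot be told apart.

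Levels are given as CPM, counts scaled to a common total with the trimmed mean of M-values (TMM), unless FPKM is named. The libraries held between 16434450 and 22729072 counts, and the adipocyte hormone genes *Adipoq* and *Lep* averaged 1795 and 911 FPKM. Certain libraries stood apart. Replicate 1 of WL2 had the highest level of its phase in 10 of 10 genes followed here, while 39.0% of all tested genes were highest in that library. Replicate 3 of WL1 was the highest of its phase in 9 genes, and replicate 1 of Pre was the lowest of its phase in 9. Replicate 2 of Pre carried 183 CPM summed over 4 B cell markers against 3.66 and 4.85 CPM in the other Pre libraries, and 34.9 CPM summed over 6 T cell markers against 2.71 and 2.17 CPM. Values that rest on replicate 1 of WL2 are given below with and without it, where both were computed.

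RefSeq promoter sequences on GRCm38.p6, which run from 250 bases before to 50 bases after a gene's start, were matched by symbol for 7 of the 10 genes. For 4 of them, a stretch of 150 bases that ends 30 bases after the start is shown, because it holds each match to a searched motif: *Trem2* at chr17:48346281-48346430 on the plus strand, *Gpnmb* at chr6:49036398-49036547 on the plus strand, the first of the *Spp1* promoters at chr5:104434991-104435140 on the plus strand, and *Plin2* at chr4:86670030-86670179 on the minus strand, each read 5′ to 3′ along the gene. Capitals mark the matches to a motif on either strand.
Trem2: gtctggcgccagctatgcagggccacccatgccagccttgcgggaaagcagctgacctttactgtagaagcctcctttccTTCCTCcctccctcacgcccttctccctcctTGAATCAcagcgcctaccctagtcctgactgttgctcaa
Gpnmb: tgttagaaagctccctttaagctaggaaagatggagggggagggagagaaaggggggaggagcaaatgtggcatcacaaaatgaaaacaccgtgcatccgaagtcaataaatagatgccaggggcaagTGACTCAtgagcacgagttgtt
Spp1: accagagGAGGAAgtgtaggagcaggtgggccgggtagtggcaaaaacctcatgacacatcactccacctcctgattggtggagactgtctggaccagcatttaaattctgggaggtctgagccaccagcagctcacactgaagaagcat
Plin2: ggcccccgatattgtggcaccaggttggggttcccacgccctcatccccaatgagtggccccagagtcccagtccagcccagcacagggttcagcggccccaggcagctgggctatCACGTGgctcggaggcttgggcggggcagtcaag

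The motifs searched were the E-box CACGTG, bound by MiT/TFE and other helix-loop-helix factors, the M-box TCATGTG, the AP-1 site TGANTCA and the purine core GAGGAA bound by PU.1, the product of *Spi1*. Positions are counted from the start, with negative values before it. An AP-1 match began at position -9 of *Trem2* and at position 8 of *Gpnmb*, whereas 7.81% of all 32851 promoters of the same length hold one. The GAGGAA core matched at position -40 of *Trem2* and at position -113 of *Spp1*, and 28.3% of all promoters hold it. An E-box began at position -4 of *Plin2*, against 7.15% of all promoters. The M-box, held by 3.77% of all promoters, was in the windows of 0 of the 7 genes. *Cd9*, *Lgals3* and *Tm4sf19* had no match in their windows. These matches describe letters in the windows and not binding.

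Together the 10 genes took 0.175%, 0.234% and 0.252% of all reads in the Pre libraries, 0.475%, 0.583% and 0.919% in the WL1 libraries, and 0.534%, 0.200% and 0.187% in the WL2 libraries. Every WL1 library thus lay above every Pre library, whereas WL2 was split between replicate 1, inside the WL1 range, and the other two, inside the Pre range. After 1 week of SD all 10 genes were higher than at Pre, with log2 fold changes between 0.74 and 2.97 (median 1.45, against 0.021 for all tested genes). The libraries of WL1 and Pre did not overlap in any of the 10 genes, while 14.7% of all tested genes were higher at WL1 without overlap. The edgeR quasi-likelihood fit over all genes, with adjusted p-values, called 5 of the 10 genes, a count that repeats what the genes were chosen by, beside 2.60% of all tested genes called higher and 4.69% called lower.

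**Figure D1:**
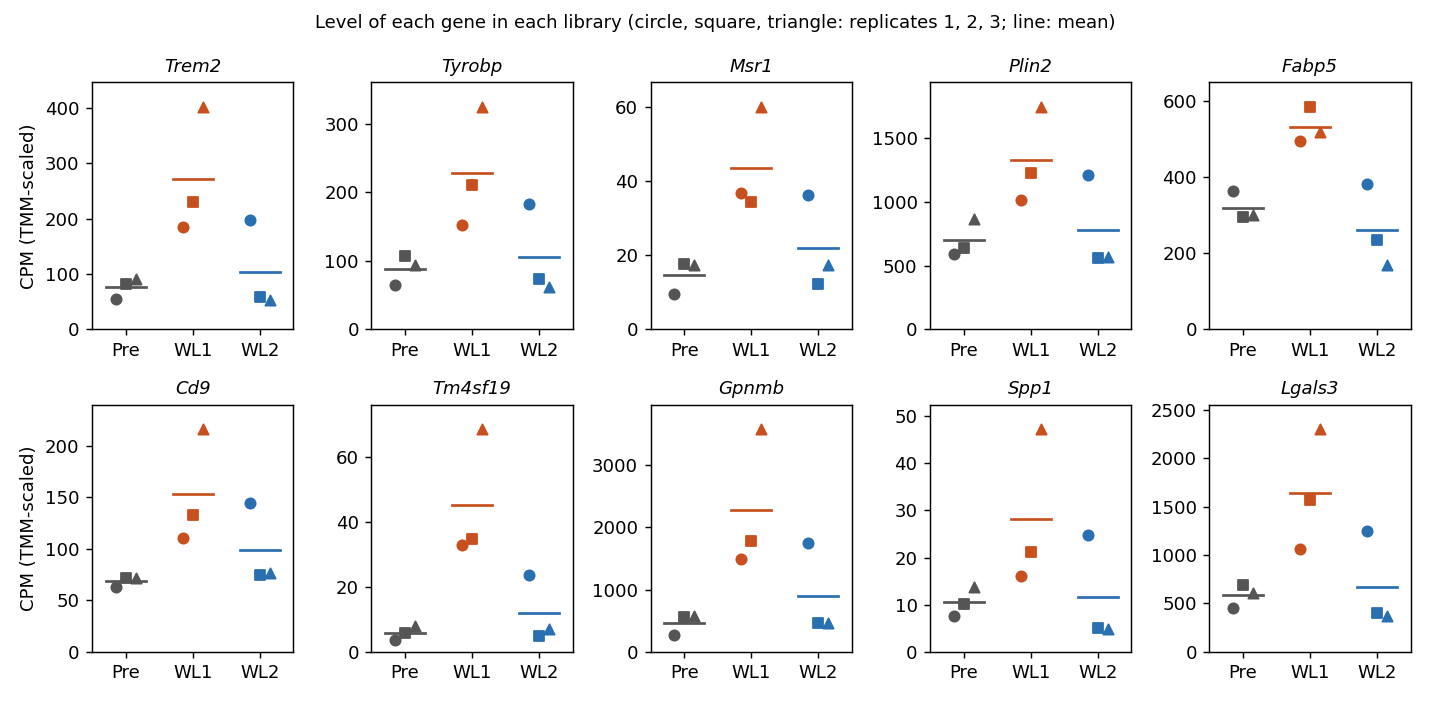
The level of each of the 10 genes in CPM, each panel with its own linear axis from 0, is plotted for each library of the 3 phases, with lines at the phase means. All WL1 libraries lie above all Pre libraries in 10 of 10 genes, and replicate 1 of WL2 (blue circle) is the highest WL2 library in each.

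*Trem2* (ENSMUSG00000023992, chromosome 17, 48653429 to 48661175 on the plus strand in the authors' table), the lipid-sensing receptor, stood at 55.1, 82.0 and 91.7 CPM at Pre, at 185, 229.5 and 402 CPM at WL1, and at 198, 58.7 and 53.3 CPM at WL2. The lowest WL1 library held more *Trem2* than the highest Pre library, and replicate 1 of WL2 fell between the WL1 libraries. From Pre to WL1 the log2 fold change of *Trem2* was 1.83 ± 0.49 (SE). Its adaptor *Tyrobp* (ENSMUSG00000030579, chromosome 7, 30113185 to 30117010, plus strand), which carries the signal of *Trem2* and of other receptors of myeloid cells, was measured at 64.7, 108 and 93.4 CPM at Pre, 152, 210.4 and 325 CPM at WL1, and 183, 73.0 and 61.8 CPM at WL2. *Tyrobp* showed the same order of phases, without overlap between WL1 and Pre, and a log2 fold change of 1.37 ± 0.41.

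*Msr1* (ENSMUSG00000025044, chromosome 8, 40034726 to 40095714, minus strand) encodes a scavenger receptor for modified lipoproteins. Its levels were 9.38, 17.5 and 17.3 CPM at Pre, 36.6, 34.3 and 59.9 CPM at WL1, and 36.1, 12.2 and 17.2 CPM at WL2. The WL1 libraries lay above the Pre libraries, and replicate 1 of WL2 lay between the 2 lower WL1 libraries. The log2 fold change of *Msr1* at WL1 was 1.56 ± 0.39.

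*Plin2* (ENSMUSG00000028494, chromosome 4, 86566623 to 86588297, minus strand) coats lipid droplets in macrophages and other cells. It was found at 593, 634 and 865 CPM at Pre, at 1011, 1225 and 1743 CPM at WL1, and at 1213, 558 and 565 CPM at WL2. The phases WL1 and Pre were apart, with a log2 fold change of 0.93 ± 0.31. *Fabp5* (ENSMUSG00000027533, chromosome 3, 10077608 to 10081667, plus strand), a carrier of fatty acids within cells, had 364, 297 and 299 CPM at Pre, 497, 585 and 518 CPM at WL1, and 383, 234 and 168 CPM at WL2. *Fabp5* had the smallest log2 fold change of the 10 genes at WL1, 0.74 ± 0.25, and was the gene in which replicate 3 of WL1 was not the highest of its phase.

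*Cd9* (ENSMUSG00000030342, chromosome 6, 125437229 to 125471754, minus strand), a tetraspanin of the cell surface and of vesicles, was at 62.3, 71.1 and 71.1 CPM at Pre, 111, 132 and 216 CPM at WL1, and 144, 74.0 and 76.7 CPM at WL2. It was the only one of the 10 genes whose WL2 libraries all lay above all Pre libraries, and its log2 fold change at WL1 was 1.16 ± 0.29. *Tm4sf19* (ENSMUSG00000079625, chromosome 16, 32219324 to 32227045, plus strand), a small membrane protein of the L6 family, stood at 3.66, 5.79 and 7.80 CPM at Pre, at 32.7, 34.6 and 68.5 CPM at WL1, and at 23.6, 4.93 and 6.95 CPM at WL2. *Tm4sf19* had the largest log2 fold change of the 10 genes at WL1, 2.97 ± 0.56, from 62 to 169 reads per Pre library to 603 to 1218 reads per WL1 library.

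*Gpnmb* (ENSMUSG00000029816, chromosome 6, 49013480 to 49047863, plus strand), a glycoprotein of lysosomes and of the cell surface, was measured at 269, 557 and 572 CPM at Pre, 1494, 1773 and 3577 CPM at WL1, and 1752, 454 and 458 CPM at WL2. Its log2 fold change at WL1 was 2.29 ± 0.56, and replicate 1 of WL2 lay within the WL1 range. *Spp1* (ENSMUSG00000029304, chromosome 5, 104582984 to 104588916, plus strand), which encodes the secreted protein osteopontin, had 7.55, 10.03 and 13.8 CPM at Pre, 16.1, 21.2 and 47.2 CPM at WL1, and 24.9, 4.99 and 4.75 CPM at WL2. *Spp1* varied most between the WL1 libraries, and its log2 fold change was 1.42 ± 0.61. *Lgals3* (ENSMUSG00000050335, chromosome 14, 47605208 to 47623617, plus strand), the galactose-binding lectin galectin-3, was at 451, 692 and 610.4 CPM at Pre, 1058, 1565 and 2297 CPM at WL1, and 1245, 401 and 372 CPM at WL2. The WL1 libraries of *Lgals3* again lay above the Pre libraries, with a log2 fold change of 1.49 ± 0.45.

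The 5 genes past the adjusted threshold at WL1 were *Trem2*, *Msr1*, *Cd9*, *Tm4sf19* and *Gpnmb*. The count rests on single libraries, since it was 0 without replicate 1 of Pre, 1 without replicate 2 or replicate 3 of Pre, 2 without replicate 1 of WL1, 1 without replicate 2 or replicate 3 of WL1, and 10 without replicate 1 of WL2, where 3.43% of all tested genes were called higher. The log2 fold changes themselves stayed above 0 in each of these fits.

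Per unit of gene length, *Lgals3* was the most abundant of the 10 genes at Pre, with 295 ± 62.4 FPKM (SD, n = 3), followed by *Plin2* (186 ± 39.4 FPKM), *Tyrobp* (125 ± 31.0 FPKM), *Fabp5* (84.2 ± 9.88 FPKM) and *Gpnmb* (67.1 ± 24.7 FPKM). *Cd9* (31.3 ± 2.38 FPKM), *Trem2* (14.5 ± 3.62 FPKM), *Spp1* (5.97 ± 1.81 FPKM), *Tm4sf19* (4.29 ± 1.55 FPKM) and *Msr1* (2.18 ± 0.687 FPKM) were lower. Neighbours in this order whose Pre libraries overlapped were *Lgals3* and *Plin2*, *Tyrobp* and *Fabp5*, *Fabp5* and *Gpnmb*, and *Spp1* and *Tm4sf19*. Such overlap is between different libraries. Within each Pre library *Lgals3* lay above *Plin2* and *Spp1* above *Tm4sf19*, whereas the order within the other overlapping pairs varied. At WL1 *Lgals3* averaged 817 ± 311 FPKM and lay apart from *Plin2* (349.6 ± 99.4 FPKM). *Gpnmb* stood in the third place, with 324 ± 161 FPKM, where its libraries overlapped with those of *Plin2* and *Tyrobp* (318 ± 122 FPKM). *Tm4sf19* reached 33.3 ± 14.9 FPKM and stood above *Spp1* (15.8 ± 9.40 FPKM). Their WL1 libraries overlapped, but within each library *Tm4sf19* was the higher of these genes. At WL2 the libraries of every pair of neighbours overlapped, through replicate 1, which was the highest for each gene. Replicates 2 and 3 alone did not overlap between neighbours, for example *Lgals3* (204 and 189 FPKM) and *Plin2* (150 and 152 FPKM). Within each WL2 library the genes kept the order of their WL2 means.

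After 2 weeks of SD, the levels of the 10 genes depended on the library. Replicate 1 of WL2 lay above all Pre libraries in 10 of 10 genes and below all WL1 libraries only in *Fabp5* and *Tm4sf19*. Replicates 2 and 3 of WL2 lay below all WL1 libraries in 10 of 10 genes. The level in replicate 1 was between 1.91 times (*Fabp5* and *Cd9*) and 5.11 times (*Spp1*) the mean of the other WL2 libraries, and the mean of these other libraries was between 0.465 times (*Spp1*) and 1.11 times (*Cd9*) the Pre mean. The coefficient of variation among WL2 libraries had a median of 68.6% over the 10 genes, against 11.3% over 14639 genes, whereas it was 24.8% against 15.4% at Pre and 38.2% against 12.4% at WL1.

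Over all 9 libraries, the log2 fold changes at WL2 against Pre ranged from -0.29 (*Fabp5*) to 1.03 (*Tm4sf19*), with a median of 0.35 against 0.008 for all tested genes. edgeR called 0 of the 10 genes, also 0 at an unadjusted p under 0.05, and DESeq2 and limma called 0, while 3.35% of all tested genes were called higher and 6.66% lower. *Cd9* alone was higher at WL2 without overlap with Pre, beside 15.1% of all tested genes. Without replicate 1 of WL2 the log2 fold changes of 8 of the 10 genes were below 0, with a median of -0.35, and *Fabp5* was the 1 gene called, at -0.67 ± 0.17, beside 5.42% of tested genes called lower. In that fit *Spp1* was at -1.11 ± 0.45, *Lgals3* at -0.60 ± 0.29, *Trem2* at -0.45 ± 0.32, and *Gpnmb* at -0.03 ± 0.39.

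From WL1 to WL2 all 10 genes were lower on average, with log2 fold changes between -1.93 (*Tm4sf19*) and -0.64 (*Cd9*) and a median of -1.20 against -0.001 for all tested genes. edgeR called 1 gene, *Fabp5* (-1.03 ± 0.25), beside 2.37% of tested genes called lower and 1.31% called higher. *Fabp5* and *Tm4sf19* were lower at WL2 without overlap, beside 16.4% of all tested genes. Without replicate 1 of WL2 all 10 genes were called, with log2 fold changes between -2.93 and -1.02 and a median of -1.92, where 5.41% of tested genes were called lower. Without replicate 1 of Pre, replicate 3 of Pre, any WL1 library, or replicate 2 or replicate 3 of WL2, 0 genes were called. The comparisons share libraries, so a high WL1 level enters both the rise from Pre and the fall to WL2.

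**Figure D2:**
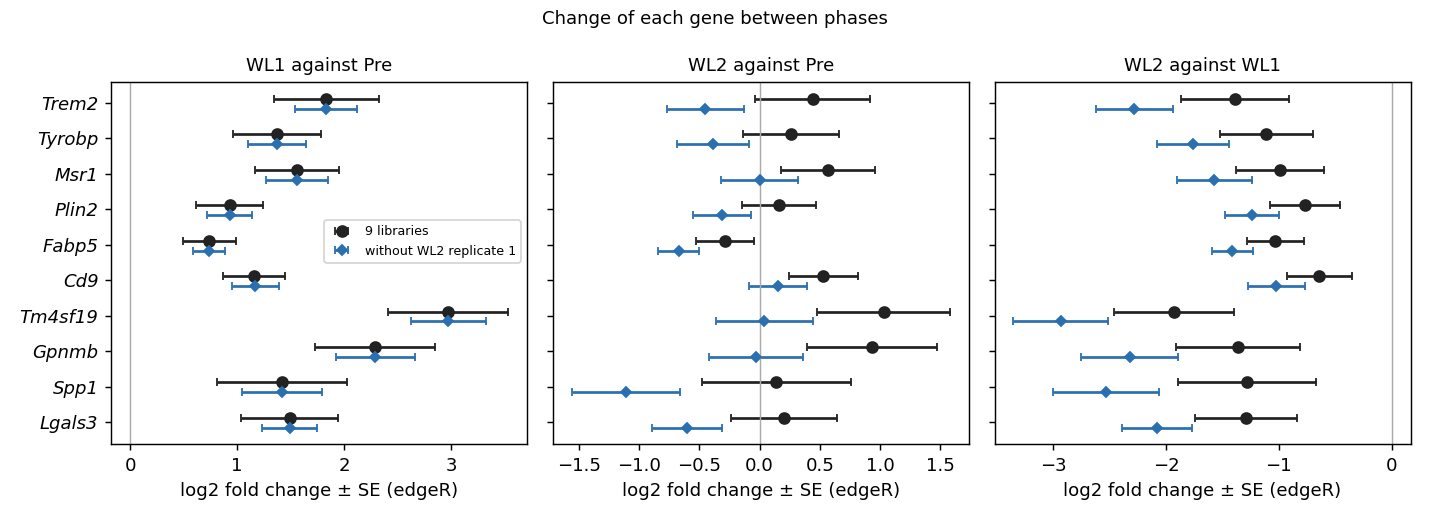
The log2 fold change of each gene with its SE is plotted for the 3 comparisons over 9 libraries (black) and without replicate 1 of WL2 (blue). At WL1 against Pre all values lie above 0 in both fits, and at WL2 against Pre leaving out the library moves the median from 0.35 to -0.35.

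The genes moved together from library to library. The correlation of log2 CPM of each gene with the mean of the other 9 genes, over 9 libraries, was between 0.789 (*Fabp5*) and 0.999 (*Trem2*). After subtracting the phase means it was between 0.609 (*Fabp5*) and 0.998 (*Trem2*), so deviations from the phase means also went together over the 3 phases pooled. These deviations were widest at WL2, where the mean centred log2 CPM of the 10 genes was 0.66 in replicate 1 and -0.89 in each other library. The correlations thus rest in part on that library, and they were not computed without it. Within Pre alone *Fabp5* was the exception, highest in replicate 1 (364 CPM), where the other 9 genes were lowest. These correlations describe genes measured in the same libraries. Among 14629 other genes with a mean of at least 1 CPM, those most like the mean of the 10 genes were *Adam8* (r = 0.998), a membrane protease of leukocytes, *Cd68* (0.996), *Gpr137b-ps* (0.996), *Lipa* (0.995), *Tmem106a* (0.995), *Aph1c* (0.995), *Cdk20* (0.994), *Cd300a* (0.994), *Rgs2* (0.993) and *Cd84* (0.992). Other measures of likeness named mostly other genes, as described in the last section. *Gpr137b-ps* is listed as a pseudogene by its name, and reads shared with its parent gene may be counted there.

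Markers of macrophages moved in the same direction as the 10 genes. The mean of log2 CPM over 16 macrophage markers, each centred on its mean over the 9 libraries, was -0.73, 0.13 and -0.07 in the Pre libraries, 0.21, 0.29 and 0.98 in the WL1 libraries, and 0.16, -0.54 and -0.45 in the WL2 libraries. The corresponding mean over the 10 genes was -0.94, -0.46 and -0.34 at Pre, 0.54, 0.81 and 1.51 at WL1, and 0.66, -0.89 and -0.89 at WL2. Both means were thus highest in replicate 3 of WL1, and both were higher in replicate 1 of WL2 than in the other WL2 libraries. The summed CPM of the 16 macrophage markers was 2041, 3969 and 3177 at Pre, 3793 to 7095 at WL1 and 2224 to 4024 at WL2. None of the 16 was at 0. WL1 and Pre overlapped only through replicate 2 of Pre, the library with high B and T cell markers. The part of those cells in this sum was not tested. Of the 16, 14 were higher in WL1 than in Pre, and the median of their log2 fold changes was 0.73. edgeR called 0 of them, 8 had an unadjusted p under 0.05, DESeq2 called 6 and limma 0. The largest log2 fold changes were those of the lysosomal membrane protein gene *Cd68* (1.52, adjusted p = 0.0566, edgeR) and of *Adgre1* (1.42, adjusted p = 0.0559, edgeR), which encodes a surface receptor used to identify mouse macrophages. *Lyz2*, the lysozyme gene, had the highest mean FPKM of the list and a log2 fold change of 0.73 (adjusted p = 0.183, edgeR).

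**Figure D3:**
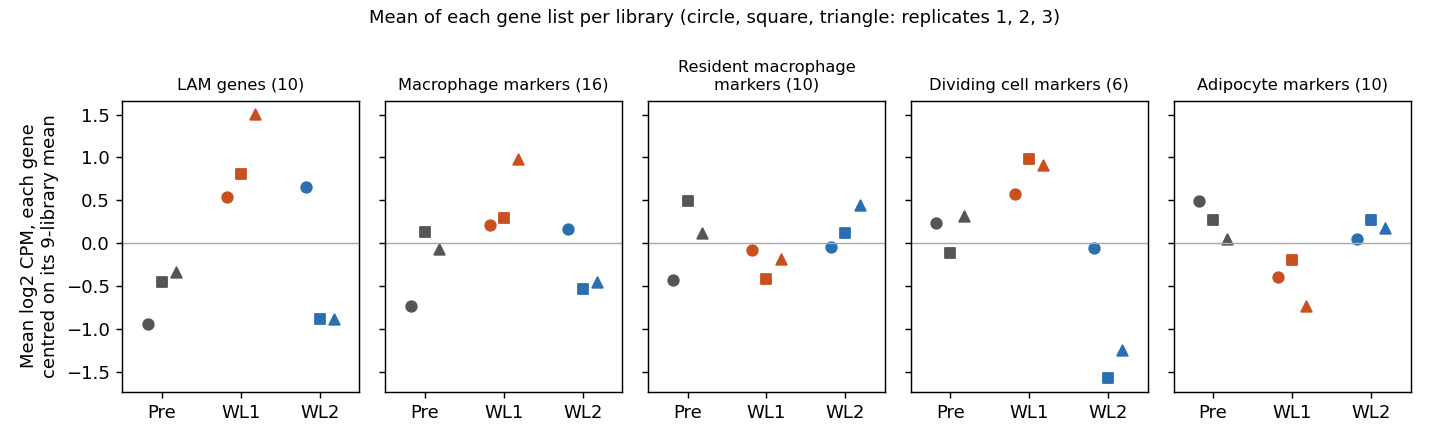
The mean of log2 CPM per library, with each gene centred on its mean over the 9 libraries, is plotted for the 10 lipid-associated macrophage genes and 4 marker lists. The 10 genes and the macrophage markers are highest at WL1 in replicate 3, at 1.51 and 0.98, where the adipocyte markers are lowest, at -0.73.

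Set against the summed CPM of the 16 macrophage markers in the same library, 6 of the 10 genes were higher at WL1 than at Pre without overlap, beside 1.83% of all tested genes. These were *Tm4sf19*, whose mean ratio was 4.59 times that at Pre, *Gpnmb* (2.89 times), *Trem2* (2.06 times), *Msr1* (1.80 times), *Lgals3* (1.64 times) and *Tyrobp* (1.52 times). The ratios of *Spp1* (1.49 times), *Cd9* (1.27 times), *Plin2* (1.097 times) and *Fabp5* (0.973 times) overlapped between the phases. At WL2 the mean ratio was 1.91 times that at Pre for *Tm4sf19* and 1.32 times without replicate 1. For *Gpnmb* it was 1.82 times and 1.29 times without that library. *Trem2* was at 1.27 times and 0.940 times without it, and *Cd9* at 1.41 times and 1.36 times. The choice of the 10 genes used the same libraries, so these ratios are also a description. They depend on the markers summed, which together averaged 3062 CPM at Pre and 5084 CPM at WL1. A gene at a steady level therefore has a lower ratio at WL1, which also lowers the 1.83% of all tested genes. Among the Pre libraries the sum was highest in replicate 2, at 3969 CPM. *Lyz2* made up 1119 of 3062 CPM on average at Pre and had a log2 fold change of 0.73 at WL1. The markers with the largest changes, *Cd68* (1.52) and *Adgre1* (1.42), rose about as much as *Msr1* (1.56), *Lgals3* (1.49) and *Tyrobp* (1.37). Ratios to single markers were not computed.

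**Figure D4:**
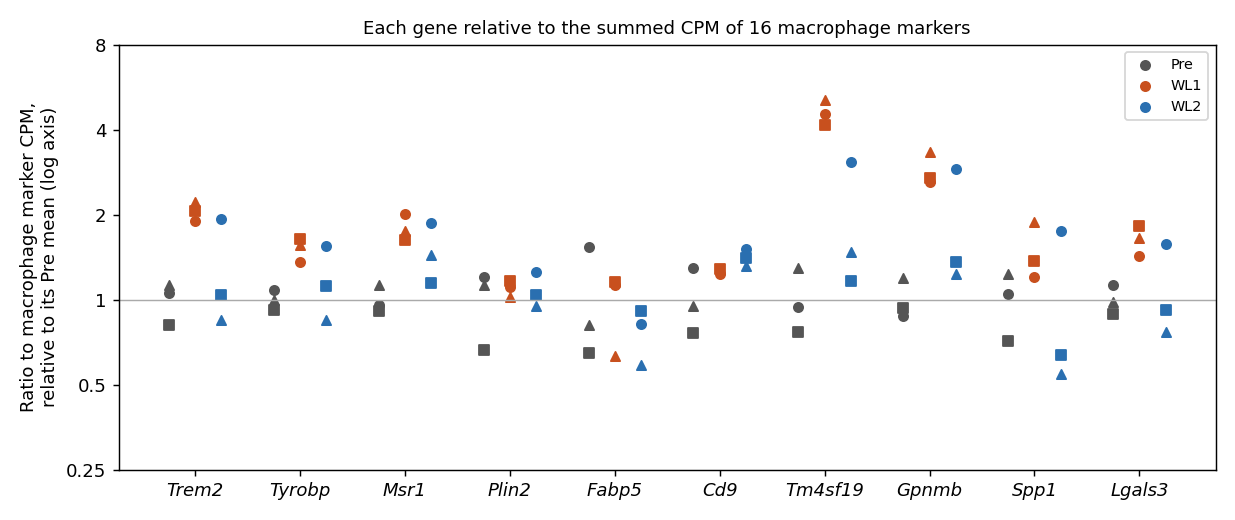
Each gene's CPM divided by the summed CPM of 16 macrophage markers is plotted per library, relative to the gene's Pre mean, on a log axis. *Tm4sf19* is highest at WL1, at 4.59 times its Pre mean on average, while *Plin2* and *Fabp5* stay near 1 on average at WL1.

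Other cell types differed in their markers. For the 10 resident macrophage markers, the log2 fold changes from Pre to WL1 had a median of -0.50, with summed CPM of 1468 to 1910.5 at Pre, 1733 to 2378 at WL1 and 1756 to 2011 at WL2. The summed level averaged 1728 CPM at Pre and 2048 CPM at WL1, so that the sum and the median differed in direction. Of them *Cbr2*, a carbonyl reductase of resident macrophages, was called lower (-1.097, adjusted p = 0.0229, edgeR), and *Selenop*, the list's gene with the highest mean FPKM, had a log2 fold change of 0.46 (adjusted p = 0.0747, edgeR). Adipocyte markers moved the opposite way to the 10 genes at WL1, since 10 of 10 were lower, with a median of -0.56 and summed CPM of 30135 to 39219 at Pre, 17374 to 22197 at WL1 and 28363 to 33350.2 at WL2. The 5 adipocyte markers called lower were *Retn*, *Car3*, *Cidec*, *Lep* and *Plin1*, beside 4.69% of all tested genes. Dividing cell markers summed to 55.1 to 89.2 CPM at Pre, 103 to 128 CPM at WL1 and 58.9, 21.3 and 33.0 CPM at WL2, and were thus also highest in replicate 1 among the WL2 libraries. The median of their log2 fold changes was 0.68 from Pre to WL1, where edgeR, DESeq2 and limma called 0 of 6 and 0 had an unadjusted p under 0.05, and -1.59 at WL2 against WL1, where *Top2a*, *Cdk1* and *Pclaf* fell. The part of these cell types in the levels of the 10 genes was not tested.

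At WL1 against Pre edgeR called 1 of 5 dendritic cell markers (*Cd209a*) and 1 of 4 neutrophil markers (*S100a8*) lower, beside 4.69% of all tested genes. In each of these lists 2 markers were higher, and the medians of the log2 fold changes were -0.10 and -0.29. Of 6 monocyte, 6 T cell, 4 B cell, 7 endothelial, 7 fibroblast and 6 mesothelial markers, 0 were called by edgeR, DESeq2 or limma, and 1, 0, 3, 0, 2 and 0 had an unadjusted p under 0.05. The summed monocyte markers were 61.1 to 117 CPM at Pre, 63.4 to 68.3 CPM at WL1 and 35.4 to 40.8 CPM at WL2.

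Genes of the same program that were not among the 10 were read from 5 lists, which together held 63 tested genes, and which were written with earlier results of these data known. At WL1 against Pre edgeR called 12 of the 63 higher and 3 lower, beside 2.60% and 4.69% of all tested genes. Of the 12 genes around TREM2 signalling, 1 was called, *Lat2*, an adaptor that links receptors to downstream kinases (1.83, adjusted p = 0.0439, edgeR), with 11.5, 23.03 and 17.5 CPM at Pre, 44.1, 52.4 and 88.6 CPM at WL1, and 39.1, 11.4 and 12.1 CPM at WL2. Its levels in WL2 were split as in the 10 genes. *Apoe*, which encodes an apolipoprotein that TREM2 binds, had the highest mean FPKM of the list and followed another course. Its levels were 3549, 2504 and 2628 CPM at Pre, 3869, 4528 and 3514 CPM at WL1, and 6243, 6575 and 5585 CPM at WL2. All WL2 libraries of *Apoe* lay above all others, with a log2 fold change from Pre to WL2 of 1.08 (adjusted p = 0.00236, edgeR).

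Among 18 other genes of lipid-associated macrophages, 4 were called higher at WL1 and 1 lower. The macrophage elastase gene *Mmp12* rose from 120, 262 and 286 CPM at Pre to 716, 895 and 1668 CPM at WL1 and was at 1002, 278 and 301 CPM at WL2 (2.29 at WL1 against Pre, adjusted p = 0.0320, edgeR). *Syngr1*, a vesicle membrane protein (2.14, adjusted p = 0.0363, edgeR), and *Lipa*, the lysosomal acid lipase (1.53, adjusted p = 0.0296, edgeR), rose with it, and *Creg1* was the fourth. *Lgals1*, which encodes the lectin galectin-1 and had the highest mean FPKM of the list, fell (-0.59, adjusted p = 0.0492, edgeR), in the opposite direction to *Lgals3*.

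Of 9 tested genes of cell fusion and osteoclast-like cells, 5 rose at WL1. *Atp6v0d2*, a subunit of the vacuolar proton pump, was at 33.9, 42.4 and 71.4 CPM at Pre, 193, 217 and 380.2 CPM at WL1, and 176, 48.9 and 49.6 CPM at WL2 (2.42 at WL1 against Pre, adjusted p = 0.0221, edgeR). The fusion proteins *Ocstamp* (1.91, adjusted p = 0.0272, edgeR) and *Dcstamp* (1.76, adjusted p = 0.0233, edgeR) rose from mean levels of 0.978 and 3.48 CPM, and *Ctsk*, a cathepsin, and *Tnfrsf11a*, the receptor of the osteoclast factor RANKL, were the other two. *Acp5*, the tartrate-resistant phosphatase with the highest mean FPKM of the list, had a log2 fold change of -0.16 (adjusted p = 0.544, edgeR).

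Of 13 genes of lipid droplets, fatty acid binding and sterol handling, the cholesterol exporter gene *Abcg1* rose at WL1 (1.23, adjusted p = 0.0133, edgeR) and *Plin1*, the droplet coat of adipocytes, fell (-0.52, adjusted p = 0.0400, edgeR), opposite to *Plin2*. *Fabp4*, the list's gene with the highest mean FPKM, was at -0.08 (adjusted p = 0.822, edgeR). Of 11 transcription factor genes, *Mitf* rose (1.17, adjusted p = 0.00996, edgeR), from 14.0, 17.9 and 20.2 CPM at Pre to 36.7, 32.2 and 48.7 CPM at WL1, and *Rxra*, the partner of LXR and PPAR receptors, fell (-0.52, adjusted p = 0.0257, edgeR). *Pparg*, with the highest mean FPKM of this list, was at -0.33 (adjusted p = 0.141, edgeR) at WL1 against Pre.

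At WL2 against Pre 1 of the 63 genes was called higher, *Apoe*, and 5 were called lower, among them *Lgals1*, *Rxra*, *Npc2* and *Tfe3*. Of all tested genes 3.35% were called higher and 6.66% lower. At WL2 against WL1 *Pparg* was called higher (0.54, adjusted p = 0.0456, edgeR), and *Ocstamp* (-1.86, adjusted p = 0.0446, edgeR) and *Npc2* lower. In that comparison 1.31% of all tested genes were called higher and 2.37% lower. The calls from Pre to WL1 and from WL1 to WL2 rest on single libraries. The 15 calls from Pre to WL1 became 1, 4 and 6 without replicates 1, 2 and 3 of Pre, 8, 3 and 2 without replicates 1, 2 and 3 of WL1, and 23 without replicate 1 of WL2. Most of the 15 calls were thus lost without any single Pre library, and also without replicate 2 or 3 of WL1. The 3 calls from WL1 to WL2 became 30 without replicate 1 of WL2, 5 without replicate 1 and 8 without replicate 2 of Pre, 1 without replicate 3 of Pre or replicate 1 of WL1, and 0 without each of the other 4 libraries.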

How the data were processed

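Whole numbers of reads per gene were deposited by the authors as 1 table of counts, without normalization, with 1 table of FPKM values per gene (scaled by gene length and library total, by the authors) for the same 9 libraries. The submitters' processing notes name HISAT2, HISAT, TopHat2, CASAVA, GRCm38 and mm10 without roles. For the counting program, strand setting and annotation, nothing is given in the sources used here. GENCODE M21 (GRCm38) shares 52073 genes with the table, of which 1472, and 0 of the 10 genes followed, start and end at the same bases. Gene coordinates were therefore copied from the table with no build named. Columns of samples that matched no sample numbered 0.

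Groups and replicate numbers came from the sample labels, which do not say that each library is 1 animal, so p-values measure the spread between libraries. Genes that reached 0.5 CPM in 1 or more libraries were tested with edgeR 4.0.16 in R 4.3.3 (glmQLFit and glmQLFTest, TMM factors, 1 model over 9 libraries, Benjamini-Hochberg over 18510 genes, threshold 0.05), a step tested on simulated data. SE is the log2 fold change divided by the root of F. Log2 CPM used a prior count of 4. Within a phase, libraries differed beyond sampling noise (chi-square of 9.26 to 49.7 per degree of freedom).

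The 10 genes, the 5 gene lists and the marker lists (macrophages, resident macrophages, monocytes, dendritic cells, neutrophils, T cells, B cells, dividing cells, adipocytes, endothelium, fibroblasts and mesothelium) were chosen with earlier results of these data known. *Oscar* of the fusion list and *Cxcr2* of the neutrophil list did not reach the filter. Named genes are the 10 genes; of the 5 lists and the 2 macrophage lists, up to 3 genes past the threshold in each direction at WL1 against Pre with the largest change, or the 2 with the largest change where none passed, and the gene with the highest mean FPKM; and the 10 genes most correlated with the mean of the 10. *Creg1*, *Ctsk*, *Tnfrsf11a*, *Npc2*, *Tfe3*, *Adipoq*, *Retn*, *Car3*, *Cidec*, *Lep*, *Top2a*, *Cdk1*, *Pclaf*, *Cd209a* and *S100a8* were named after their values were seen. Some results are not reported here. A planned search of protein sequences was not run. Alternatives covered the filter (none, or 0.5 CPM in 3 libraries), DESeq2 1.42.0, RLE factors, library totals alone, the replicate number as a block, fits of the compared phases alone, limma 3.58.1 on log2(FPKM + 1) or log2(FPKM + 0.1), leaving out each library, shares without mitochondrial genes, and other measures of likeness.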

Additional observations from a re-analysis of the deposited data

How the results depend on the processing

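With 3 libraries per phase, counts of called genes depended on single libraries. Of the 10 genes, 5 were called at WL1 against Pre with all libraries, 10 with no filter, 8 with the compared phases alone, 2 with limma on either FPKM scale, and 0 to 10 when single libraries were left out. At WL2 against Pre 0 were called, and 0 to 1 when single libraries were left out. At WL2 against WL1 1 was called, 7 with no filter, 2 with DESeq2, 0 with limma on either scale, 0 with the compared phases alone, and 0 to 10 when single libraries were left out. Of all genes, 1350 were called at WL1 against Pre, 2344 with DESeq2 and 512 to 1500 without single libraries. At WL2 against Pre 1853 were called, and 743 to 1688 without single libraries. At WL2 against WL1 681 were called, 1668 with no filter, 1935 with DESeq2, 1051 with the compared phases alone, and 37 to 1351 without single libraries. Of the 63 genes of the 5 lists, 15 were called at WL1 against Pre, 27 with no filter, 23 with DESeq2 and 1 to 23 without single libraries. At WL2 against WL1 3 were called, 31 with no filter, 26 with DESeq2, 7 with the compared phases alone, and 0 to 30 without single libraries. Apart from the settings that use fewer libraries, the cause was not tested.

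The replicate numbers are no pairs by the labels, and same-numbered libraries had correlations of their deviations between -0.277 and 0.107. With the replicate number as a block, 1 of the 10 genes was called between WL1 and Pre, 0 between WL2 and Pre and 0 between WL2 and WL1. The block left 844 of all genes called between WL1 and Pre and 330 between WL2 and WL1, and 4 and 0 of the 63 list genes. It did not move the other counts by over 1.5 times.

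With scaling by library totals alone, the median log2 fold change of all genes was 0.120 between WL1 and Pre, where it was 0.021 with TMM, and 0.158 between WL2 and Pre, where it was 0.008. Of the 10 genes most like the 10, 0 were shared with the Spearman correlation and 2 with deviations from the phase means. The log2 fold changes from Pre to WL1 and from WL1 to WL2 of the 10 genes each kept its direction under the 18 alternatives. Without mitochondrial genes in the total, the shares of the 10 genes were between 0.181% and 0.936%. Depth limits *Tm4sf19* and *Spp1* most, with 62 and 82 reads in their lowest libraries.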
